A study of Rattus norvegicus with 6 samples.

Results

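The pore-forming alpha-1 subunits of voltage-gated calcium channels were examined for CpG methylation in rat dorsal root ganglia (DRG). The 8 genes considered were Cacna1a, Cacna1b, Cacna1c, Cacna1d, Cacna1e, Cacna1g, Cacna1h and Cacna1i. These genes were chosen with earlier results of these data known. Their sites were then chosen as the rows of the authors' annotated table whose RefSeq transcript, the nearest annotated start, carries one of these symbols, without regard to any measured difference. This gave 32 of 32674 annotated sites, assigned to 5 of the 8 genes: 13 to Cacna1b, 8 to Cacna1a, 5 to Cacna1e, 4 to Cacna1c and 2 to Cacna1i. Cacna1d, Cacna1g and Cacna1h were not analysed here, since no row was matched to them. Symbols were found for 7627 of 8123 transcripts of the table, so that further rows of the 8 genes may lie among the transcripts without a symbol. An intronic row on chromosome 16 whose transcript has no symbol may belong to Cacna1d and was not used. Sites covered by 10 reads or more in all 6 libraries within 2 kb of those rows were added, giving 137 of 424646 such sites, of which 105 are not in the annotated table.

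The ganglia came from male Sprague-Dawley rats aged 8 to 9 weeks and weighing about 220 g. In the SNL group (n = 3 libraries) the left L5 and L6 spinal nerves had been tied, a surgical model of neuropathic pain. In the Sham group (n = 3 libraries) the contralateral side had been operated on but its nerves left untied, so that libraries of both groups may share an animal. All tissue was collected 3 weeks after surgery. The labels do not say which libraries came from separate animals, whether animals were pooled, or which ganglia were taken. The p-values therefore speak only of variation among libraries, part of which may be technical. For the sites with 10 reads or more, the test took this variation as 1 value common to all sites with spread. Methylation was read by reduced representation bisulfite sequencing, which sequences fragments cut at MspI sites (CCGG) and gives, at each CpG, the percent of reads that kept a cytosine. The ganglion holds sensory neurons, glia, vessel cells and immune cells, and in bulk DNA a change in cell mix and a change of methylation within cells cannot be told apart.

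Voltage-gated calcium channels open when a membrane depolarises, and the calcium that enters triggers transmitter release, enzymes and gene expression. Cacna1a encodes the P/Q-type pore and Cacna1b the N-type pore, which carry most of the calcium that drives vesicle fusion at nerve terminals; the N-type channel at the central terminals of sensory neurons is the target of the analgesic ziconotide. Cacna1e encodes the R-type pore, Cacna1c an L-type pore that couples depolarisation to gene expression, and Cacna1i a low-voltage-activated T-type pore. Methylation of CpGs near a start is commonly low at active or CpG-rich promoters, and methylation in gene bodies and between genes is commonly high.

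RefSeq promoter sequences, covering 250 bases before to 50 bases after a start in the assembly GRCr8, were matched for 5 of the 8 genes. The pair below is shown because it contrasts the gene that has sites flagged as promoter, Cacna1a, with one whose sites all lie far inside the gene, Cacna1c. Each is written 5′ to 3′ on the gene's strand, and capitals mark CCGG, the MspI site, which reads the same on both strands. Cacna1a lies at chr19:40650419-40650718 and Cacna1c at chr4:154051699-154051998, both on the minus strand. The table lists 1 start per gene, which may differ from the start named by the rn4 annotation of the methylation files. In the Cacna1a window the start falls on an ATG, so it may be where the coding sequence begins rather than where transcription does.
Cacna1a: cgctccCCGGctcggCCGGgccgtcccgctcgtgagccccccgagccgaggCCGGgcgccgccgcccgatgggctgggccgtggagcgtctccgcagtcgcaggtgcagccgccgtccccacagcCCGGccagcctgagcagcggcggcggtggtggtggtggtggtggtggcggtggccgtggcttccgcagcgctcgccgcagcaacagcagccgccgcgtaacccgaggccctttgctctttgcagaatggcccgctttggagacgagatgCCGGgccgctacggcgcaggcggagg
Cacna1c: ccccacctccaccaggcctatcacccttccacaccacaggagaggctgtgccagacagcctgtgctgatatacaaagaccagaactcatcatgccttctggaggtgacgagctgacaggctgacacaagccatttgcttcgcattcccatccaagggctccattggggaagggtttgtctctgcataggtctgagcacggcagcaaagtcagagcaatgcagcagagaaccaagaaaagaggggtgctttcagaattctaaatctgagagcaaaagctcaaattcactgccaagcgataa
The Cacna1a window held 5 CCGG and 41 CpG dinucleotides, and the Cacna1c window 0 CCGG and 4 CpG. Among the 33469 promoters of the table, 51.4% held at least 1 CCGG, the median held 7 CpG, 2.8% held as many CpG as Cacna1a and 38% held no more than Cacna1c. In these windows Cacna1b held 2 CCGG, Cacna1d 9 and Cacna1e 0. No site with 10 reads or more fell inside the corresponding 250-base upstream and 50-base downstream window of the named Cacna1a start, so the promoter-flagged sites lie outside it.

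The 5 genes stood at separate methylation levels, and in each of them the SNL and Sham libraries overlapped. Cacna1b was the most methylated. Its reads summed over 13 sites gave 91.9%, 90.9% and 91.4% in SNL 1 to 3 and 90.4%, 91.0% and 91.1% in Sham 1 to 3. Cacna1e followed, at 85.2%, 85.7% and 86.4% against 85.6%, 85.3% and 84.7%. Cacna1i stood at 55.8%, 53.8% and 44.6% against 53.8%, 48.7% and 50.9%. A sum weighs sites by their reads, and the 2 Cacna1i sites stood at 85.3% and 24.1% in SNL. Sums over such unlike sites also move with coverage. Cacna1a stood at 35.9%, 33.4% and 36.9% against 34.2%, 32.4% and 37.3%. Cacna1c was the lowest, at 11.0%, 14% and 7.79% against 7.04%, 14.9% and 10%. No 2 neighbours in this order of genes overlapped over the 6 libraries. The genes' sites lie in different places: those of Cacna1e lie 85.0 to 171.9 kb upstream of its start, those of Cacna1i 44.0 and 53.8 kb inside the gene, and those of Cacna1a include 4 near the start.

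**Figure D1:**
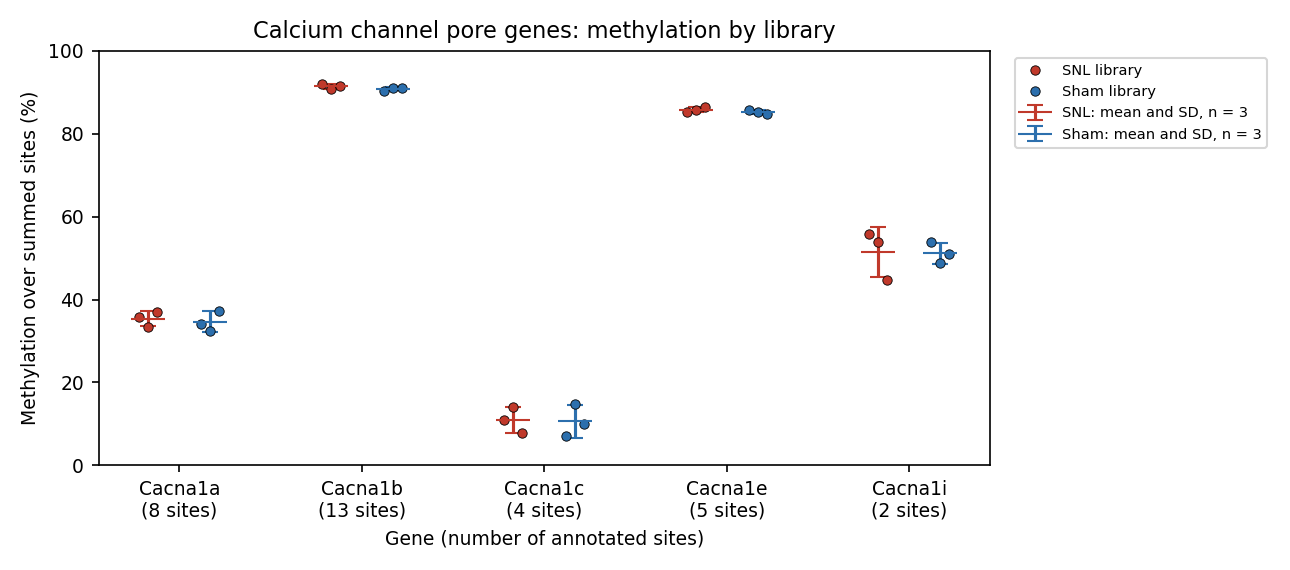
Percent methylation of each gene in each library, from reads summed over its annotated sites (the vertical axis, in percent; points are libraries, horizontal and vertical bars the mean and SD of 3 libraries). SNL and Sham points overlap in all 5 genes, and the genes differ from one another far more than the groups do.

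No difference between the groups passed the test in any of the 5 genes. With the moderated quasi-binomial test, 0 of 5 passed an adjusted p of 0.05, where 0.536% of all 8016 genes did. At an unadjusted p under 0.05 there were also 0, where 13.7% of all genes passed. Limma and an unmoderated F test gave 0 of 5 as well. After adjustment limma called only 6 of all genes and the F test 0, so these 2 could hardly have called a pore gene. Groups did not overlap in 0 of 5, where 19.5% of all genes showed no overlap. The gene means differed by +0.77 points for Cacna1a (adjusted p = 0.886), +0.56 for Cacna1b (adjusted p = 0.715), +0.33 for Cacna1c (adjusted p = 0.915), +0.57 for Cacna1e (adjusted p = 0.852) and +0.26 for Cacna1i (adjusted p = 0.981). The 95% interval of the fitted difference ran from -0.58 to 1.61 points for Cacna1b and from -1.39 to 2.43 points for Cacna1e, but from -7.76 to 8.49 points for Cacna1i, which has 2 sites and 267 to 351 reads per library. For Cacna1a it ran from -2.77 to 4.27 points and for Cacna1c from -4.34 to 6.07 points.

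All 5 differences were above 0, where 33.1% of all genes were higher in SNL, and the median over the 5 was +0.56 points beside -0.79 over all genes. With an offset for each library the 5 stayed above 0 (the largest 2.36 for Cacna1a), but with sites weighted equally Cacna1i fell to -0.33 points. The signs of 3 genes rested on single libraries. Cacna1a gave -0.34 points without Sham replicate 2. Cacna1c gave -1.21 without SNL replicate 2 and -1.47 without Sham replicate 1. Cacna1i gave -1.96 without SNL replicate 1, -0.93 without SNL replicate 2 and -0.97 without Sham replicate 2.

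By library, the mean over the 32 sites was 64.2% ± 0.85 in SNL and 63.7% ± 0.53 in Sham (SD, n = 3), and that over all annotated sites was 67.3% ± 0.79 and 68.2% ± 0.43. At the 32 sites, 0 passed the adjusted threshold, where 1.42% of all annotated sites did. At an unadjusted p under 0.05 there were 2 of 32 with this test, 4 with limma and 0 with the unmoderated F test, where 13.1% of all sites passed with the first. The shares of all sites with limma and the F test at this threshold are not given here, so those counts cannot be placed. The groups did not overlap at 3 of the 32, where 17.8% of all sites showed no overlap. The SNL mean was higher at 23 and lower at 9, where 38.7% of all sites were higher. With library offsets 25 of 32 were higher, beside 50% of all sites. The offsets are medians over all sites, so they themselves bring that share close to 50%. The median difference was +0.70 points over the 32 and -0.55 over all sites. Coverage at these sites ran from 102 to 718 reads, and the lowest adjusted p was 0.290.

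**Figure D2:**
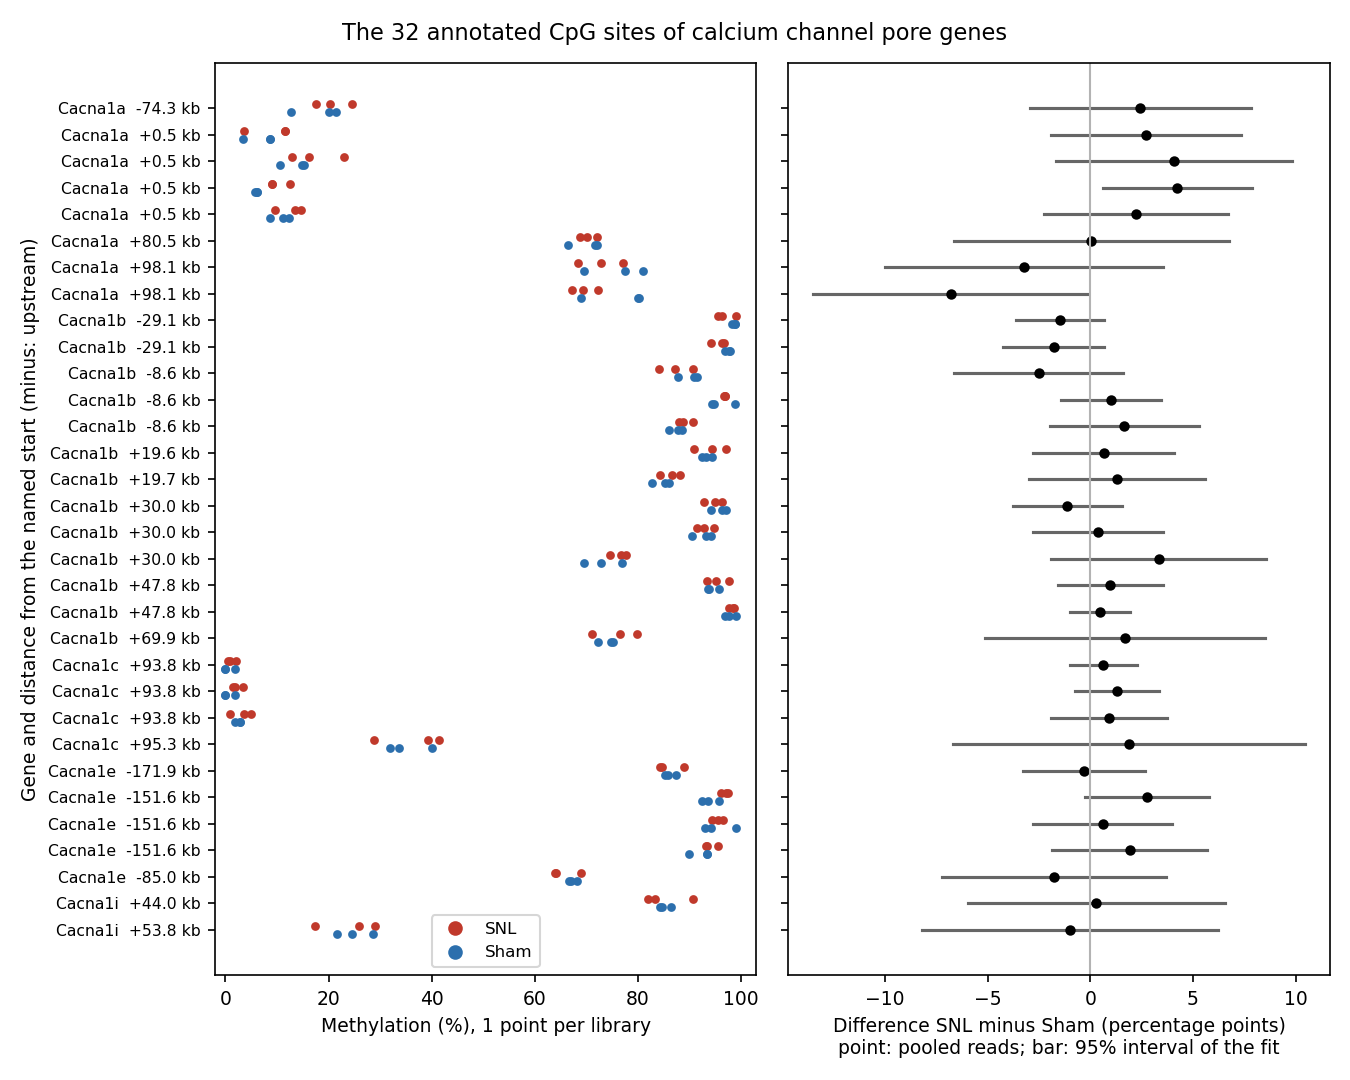
Left, percent methylation of the 32 annotated sites in each library (1 point per library, SNL red and Sham blue). Right, the SNL minus Sham difference of the pooled reads in percentage points with its 95% interval. Sites are ordered by gene and by distance from the named start. Intervals cross 0 at all but 2 sites, both in Cacna1a and on opposite sides of 0.

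Of the 32 sites, 21 (65.6%), carried the intron flag, against 27.6% of all annotated sites, and 4 (12.5%) the promoter flag, against 7.31%. CpG islands held 3 and their shores 5. The mean over the 6 libraries was over 80% at 16 sites, between 20% and 80% at 8 and under 20% at 8.

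The 4 promoter-flagged sites, all of Cacna1a and all in a CpG island shore 455 to 483 bases inside the transcript, all had a higher mean in SNL, and none passed the test. The lowest p in the fit of the annotated sites belonged to one of them. At chromosome 19, position 25424032 (rn4), 464 bases from the start, methylation was 9.05%, 12.5% and 8.98% in SNL and 5.80%, 6.12% and 6.21% in Sham. All 3 SNL libraries lay above all 3 Sham libraries. The difference was +4.13 points ± 1.17 (SE), with an interval of 0.604 to 7.89 on pooled reads and 161 to 232 reads per library, and it did not pass the test (adjusted p = 0.290). The authors' deposited table gives this site a q-value of 0.0989, the lowest among the 32. The other three sites lie within 1 read length of it and can share its reads, so the 4 are not independent. Their differences were +1.79, +3.76 and +2.02 points with overlapping libraries (adjusted p = 0.740, 0.583 and 0.675).

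The added sites extended this region to both sides of the Cacna1a start. The 13 upstream sites, 1021 to 1348 bases before it, averaged 2.19% ± 0.91 in SNL and 1.49% ± 0.37 in Sham (SD, n = 3), at 10 to 39 reads. The 13 downstream sites, 132 to 483 bases after it, averaged 7.37%, 8.85% and 5.68% in SNL and 4.43%, 6.05% and 4.73% in Sham, with 11 sites higher and 2 lower. SNL 3, at 5.68%, lay below Sham 2, at 6.05%, so the groups overlapped. The division into upstream and downstream was made after the values were seen and was not tested. In the 1-kb window that holds the downstream sites, summed reads gave 13.5%, 11.9% and 8.44% in SNL and 6.74%, 9.21% and 8.81% in Sham, a difference of +3.05 points (adjusted p = 0.316, unadjusted p = 0.00993), the lowest p among the windows of these genes. The downstream sites include the promoter-flagged sites above, so this window is not separate from them. Its sum counts a read once for each site it covers, so the p-value may be too low.

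Deeper inside Cacna1a the sites were more methylated, and most of those 96140 to 98123 bases from the start were lower in SNL. At position 25326373, 98.1 kb inside the gene and intronic, methylation was 69.3%, 72.3% and 67.2% in SNL and 80.3%, 69.0% and 80.1% in Sham. Sham 2 lay inside the SNL range. This was the largest difference among the 32 sites, -6.83 points ± 4.01 (SE, adjusted p = 0.375, 206 to 242 reads). Over these 14 sites, 11 were lower and 3 higher in SNL, and the mean over sites was 52.7%, 56.4% and 52.9% against 57.6%, 57.9% and 61.2%. These means did not overlap (-4.91 points), but in the 2 windows of 1 kb that cover the region the summed reads did overlap and did not pass the test (adjusted p = 0.592 and 0.831). The largest downward difference of the 137 sites lay here, at position 25328318: 11.1%, 22.7% and 22.7% in SNL against 25%, 33.3% and 61.1% in Sham, without overlap. It was -21.0 points ± 11.6 (SE, adjusted p = 0.650) at only 18 to 24 reads per library. At 80.5 kb, position 25343957, the levels were 70.3% ± 1.6 and 70.1% ± 3.15 (SD, n = 3). At 74.3 kb upstream, position 25498827, they were 20.8% ± 3.44 and 18.1% ± 4.72.

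Cacna1b, the N-type pore, was densely methylated at its 13 sites, all of them 8.6 kb or more from a start, 8 inside the gene and 5 upstream. The site with the lowest p lay 29 kb upstream (chromosome 3, position 3068796): 96.6%, 96.4% and 94.2% in SNL against 97.8%, 97.7% and 97.0% in Sham, without overlap, -1.76 points ± 0.81 (SE, adjusted p = 0.572). The largest difference lay 30 kb inside the gene, position 3009675, with 77.7%, 74.5% and 76.8% against 72.8%, 77.0% and 69.6%, overlapping groups and +3.24 points ± 2.34 (SE, adjusted p = 0.638). The other 11 sites differed by -2.71 to 1.71 points. Among genes with at least 3 annotated sites, those whose percents over the 6 libraries lay closest to Cacna1b were Actrt2, Ogfrl1 and Got2, with root mean square differences of 0.40, 0.407 and 0.450 points out of 4205 genes compared.

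The 5 sites of Cacna1e, the R-type pore, all lay upstream of its start and outside promoter, exon and intron flags. The site with the lowest p and the largest difference was at chromosome 13, position 69835586, 151.6 kb upstream. It stood at 97.2%, 96.1% and 97.5% in SNL and 95.8%, 93.6% and 92.5% in Sham, without overlap, +3.00 points ± 1.07 (SE, adjusted p = 0.417, 106 to 213 reads). Its neighbours at positions 69835579 and 69835568 differed by +0.07 and +1.74 points with overlapping libraries. The site 171.9 kb upstream, read 577 to 718 times per library, stood at 85.9% ± 2.53 and 86.2% ± 1.14 (SD, n = 3).

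Cacna1c, an L-type pore, held an almost unmethylated stretch inside an intron, 93672 to 94709 bases from the named start, in which the 3 annotated sites carry the CpG island flag, while the start sequence printed above is poor in CpG. The 42 sites of this stretch, of which the 39 added ones have no flag in the files and were grouped here by position, averaged 1.70%, 1.48% and 2.05% in SNL and 1.42%, 0.402% and 2.67% in Sham, and 14 of them had 0 methylated reads in all 6 libraries. Their coverage of 11 to 168 reads means that a library with 0 methylated reads at a thinly read site says little about that site. At the annotated island site with the lowest p, chromosome 4, position 155423602, the levels were 1.79%, 1.43% and 3.33% in SNL against 1.82%, 0% and 0% in Sham (+1.58 points ± 0.84 SE, adjusted p = 0.642). The shore site at position 155422102 was far more methylated, with 39.4%, 41.5% and 28.8% against 31.9%, 40.0% and 33.6%. Its groups overlapped (+1.41 points ± 4.63 SE, adjusted p = 0.909). Its SD over libraries was 6.78 points in SNL and 4.27 in Sham.

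Cacna1i, the T-type pore, had the largest upward difference of the 137 sites, at a thinly read site of an intronic cluster 52982 to 53905 bases from its start. Its deepest site there, chromosome 7, position 118636042, read 157 to 189 times, gave 25.9%, 29.0% and 17.3% in SNL and 21.7%, 24.5% and 28.6% in Sham, with overlap and -0.84 points ± 4.03 (SE, adjusted p = 0.949). Of the 6 other sites, at 10 to 41 reads, 5 were higher in SNL. At position 118636164 the libraries stood at 53.7%, 51.7% and 40.5% against 22.7%, 33.3% and 28.0%, without overlap. That is +20.6 points ± 5.11 (SE), with an interval of 4.56 to 36.3 on pooled reads and an adjusted p of 0.506 (22 to 41 reads). The mean over the 7 sites was 41.0%, 36.9% and 37.3% in SNL and 28.5%, 29.0% and 31.0% in Sham, a difference of +8.94 points. With reads summed, the 2 windows of 1 kb gave +8.75 and +3.25 points with overlapping groups (adjusted p = 0.70 and 0.800), and the deepest site holds most of the reads of the second. At 44.0 kb, position 118626251, the levels were 85.3% ± 4.75 and 85.1% ± 1.16 (SD, n = 3).

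**Figure D3:**
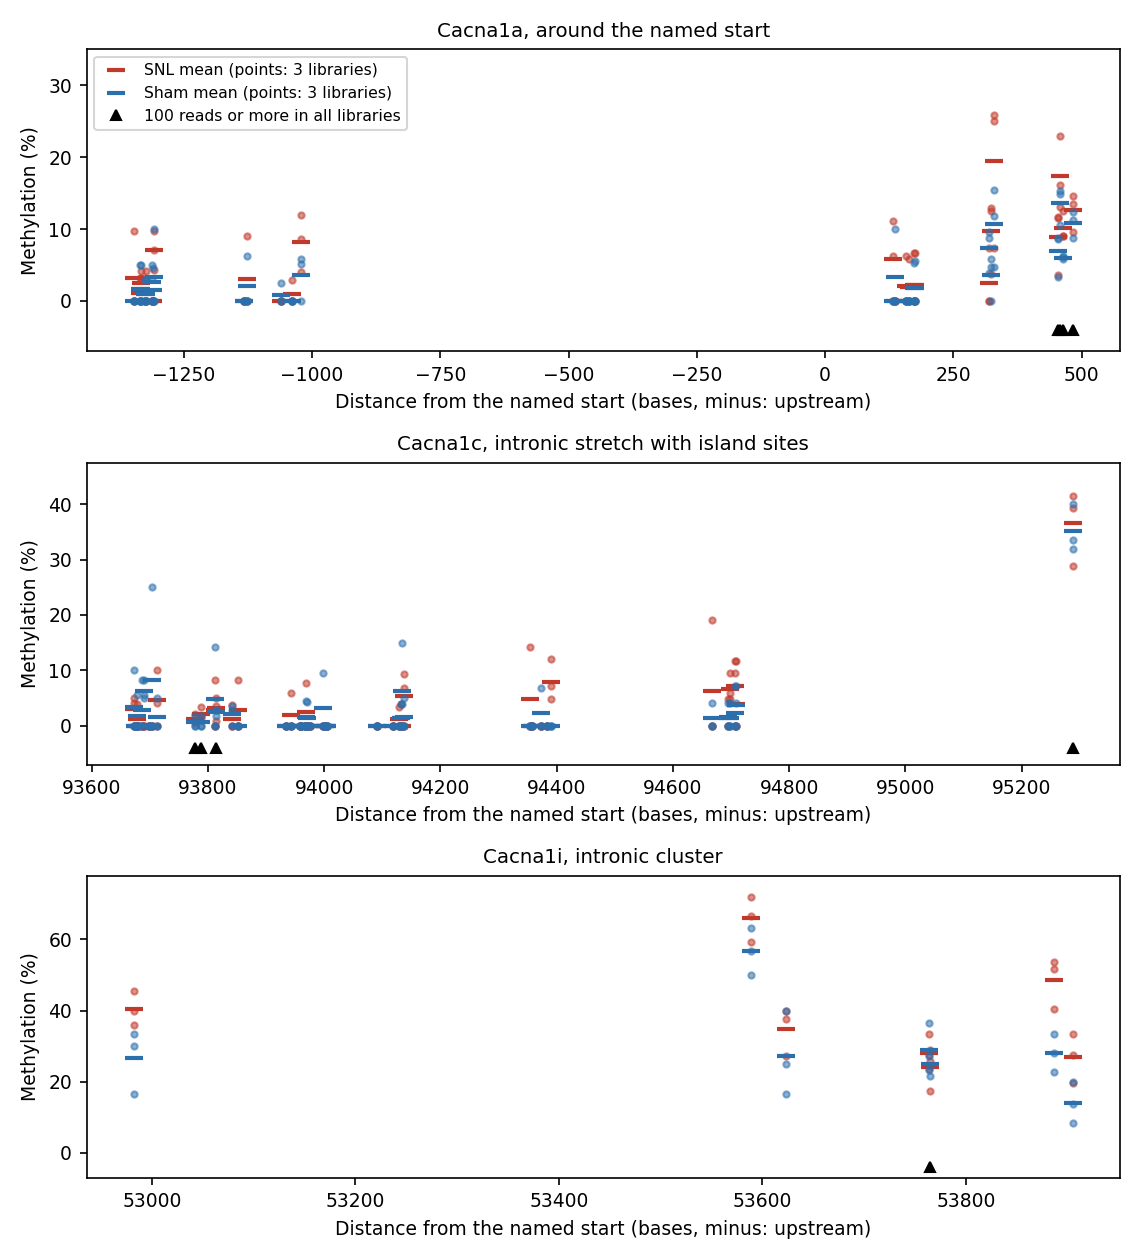
Percent methylation against distance from the named start in bases, for sites with 10 reads or more around the Cacna1a start, in the intronic stretch of Cacna1c that holds its flagged island sites and in the intronic cluster of Cacna1i. Points are libraries, horizontal bars the means of 3, and triangles mark sites with 100 reads or more in all libraries. Sites near the Cacna1a start and in the Cacna1c stretch stand mostly under 10%, and the SNL means of Cacna1i exceed the Sham means except at the pair of sites at 53764 and 53765 bases.

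Across the 137 sites with 10 reads or more, 0 passed the adjusted threshold, where 0.399% of all such sites did. At an unadjusted p under 0.05 there were 10 with the main test, 6 with limma and 0 with the unmoderated F test, where 7.3% of all sites passed with the first. For limma and the F test the shares of all sites are not given here, so those counts cannot be placed. Groups did not overlap at 10 of 137, where 10.2% of all sites showed no overlap. SNL was higher at 70, lower at 50 and equal at 17, where 43.1% of all sites were higher. The lowest adjusted p, 0.485, belonged to the Cacna1a site at position 25326373. In this fit all sites with spread shared 1 overdispersion, so a site's own spread between libraries did not enter its p-value or interval. The Cacna1a site at position 25343775 stood at 0%, 0% and 88.2% in SNL and 100%, 0% and 0% in Sham. Its SE over libraries was 44.5 points, yet its interval ran only from -22.9 to 18.0 points. In windows of 1 kb, 0 of 14 passed (0 with limma and 0 with the F test), where 0.597% of 64004 windows did with the main test. With that test 1 had an unadjusted p under 0.05, where 9.3% of all windows did. The shares of all windows with limma and the F test are not given here. Summed reads did not overlap in 1 of 14, where 14% of all windows showed no overlap, and means over sites in 5 of 14, where 13.2% did. The added sites were thin: the median of their lowest coverage was 14 reads, against 164.5 reads at the 32 annotated sites. Differences of 10 points or more were seen at 9 of the 105 added sites and at 0 of the 32.

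The channel's partners were read from 3 lists. Among auxiliary and other pore subunits, 11 of 18 genes had sites: 0 of 11 passed, where 0.536% of all genes did, and 3 had an unadjusted p under 0.05, where 13.7% of all genes did. Of the 11, 7 were lower and 4 higher, where 33.1% of all genes were higher, with a median of -0.21 points beside -0.79 over all genes. Cacna2d1, the alpha-2-delta subunit bound by gabapentin, gave 81.3%, 77.0% and 77.7% in SNL and 84.2%, 82.6% and 83.4% in Sham, without overlap (-4.73 points ± 1.43 SE, adjusted p = 0.136). A Cacna2d1 site 154 kb upstream (chromosome 4, position 15720712) was the 1 of 59 sites on this list that passed, where 1.42% of all annotated sites did, lower in SNL by -5.67 points ± 1.59 (SE, adjusted p = 0.0423). Cacng3, a gamma subunit that also serves AMPA receptors, gave +2.27 points (adjusted p = 0.262).

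In the list of release machinery and channel partners, 12 of 19 genes had sites and 1 passed, 5 had an unadjusted p under 0.05 and 6 did not overlap between the groups, where 0.536%, 13.7% and 19.5% of all genes did so. Of the 12, 9 were lower and 3 higher, with a median of -0.97 points. That gene was Cplx2, whose product complexin clamps and promotes vesicle fusion: 44.8%, 43.1% and 42.4% in SNL and 65.6%, 62.0% and 62.8% in Sham, without overlap (-20.0 points ± 1.32 SE, adjusted p = 0.000863). Its 2 sites that passed were the only ones of 53 on this list to do so (3.77%), where 1.42% of all annotated sites did. Rims2, an active-zone scaffold that tethers calcium channels, gave -4.59 points (adjusted p = 0.179). Among calcium targets 12 of 20 genes had sites and 0 passed (2 at an unadjusted p under 0.05, against the same shares of all genes), with 9 lower and 3 higher and a median of -1.00 points. Of the 53 sites on this list 1 passed (1.89%), lower in SNL, where 1.42% of all annotated sites did. Nfatc1, a transcription factor activated through calcineurin, gave -5.01 points (adjusted p = 0.150). None of the 5 pore genes passed, as on the auxiliary and calcium target lists, where 0.536% of all genes did. Their median of +0.56 points has the other sign from the medians of the 3 lists. Whether the lists differ was not tested.

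**Figure D4:**
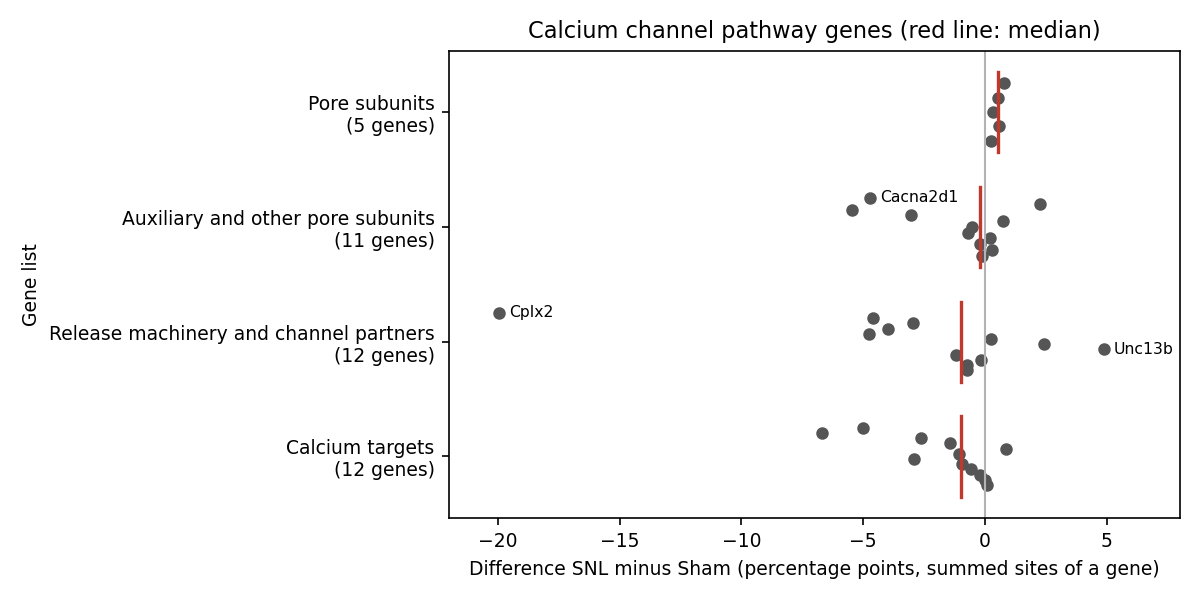
SNL minus Sham difference in percentage points for each gene with sites (1 point per gene, red lines the medians) in the pore subunits and 3 partner lists. The 5 pore genes lie between 0.26 and 0.77 points, and Cplx2 at -20.0 points is the only gene shown that passed the test.

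Cell type markers could be read only as promoter methylation. Of the lists for sensory neurons, glia, endothelium and mural cells, 1 gene each had a promoter-flagged site (Ntrk2, Erbb3 and Pdgfrb), all between 1.38% and 5.48% in every library, and 0 sites passed. The immune, fibroblast and muscle lists had 0 such genes. The tissue label could not be checked further, and the part of cell mix in these results was not tested. Coverage added over all listed cytosines ran from 27247702 to 34293779 per library. A read counts in it once for each cytosine it covers, so it is not a number of reads.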

How the data were processed

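DNA of rat DRG was cut with MspI, bisulfite converted and read as single 50-base reads, per the labels' protocols. Alignment used Bismark 0.18.1 with Bowtie2, and methylKit 1.3.3 followed, per the submitters' processing notes. These notes name rn4 while the protocol in the labels names hg19; coordinates are as deposited, taken as rn4. Per the file headers, the deposited per-library files list, for each cytosine, the count of reads covering it and what percent held C. The authors' annotated table gives percent, p-value and q-value per site, with coverage of 100 reads or more. The authors' test settings are not given here.

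Methylated counts were computed here as coverage times percent. Nuclear sites only were used. RefSeq names came from a GRCr8 gene table (7627 of 8123 transcripts matched, 94% of sites), used for names only. Each feature was fitted by logistic regression of methylated and unmethylated counts on group, with overdispersion over 4 residual degrees of freedom moderated by squeezeVar of limma with 1 as its lowest value, a two-sided F test and Benjamini-Hochberg adjustment over all features at 0.05. Features without spread between libraries were left out of the prior and given an overdispersion of 1, a choice made after seeing the data. Gene sums add the counts of a gene's annotated sites; reads can count more than once. Intervals cover the pooled reads with this overdispersion, which for sites with 10 reads or more was 1 value common to all sites with spread. The test was also run on counts simulated with the overdispersion of these same fits. Such a run cannot show whether that overdispersion holds for the real libraries.

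The genes and lists were chosen with earlier results of these data known. Named within each gene are the sites with the lowest p and the largest difference and every called site; from each list, called genes and the 2 of lowest p (1 of these is not reported here, though counts include it); and the 3 genes most like the pore gene of lowest p. Called list sites, windows and added sites were chosen after their values were seen. Alternatives left out each library, offset libraries, added a replicate block, used limma on logit values or no moderation, and changed coverage, sites and weights; 1-kb windows were added after seeing the data. Fits ran in R 4.3.3 with limma 3.58.1 (reading by data.table, version 1.17.8). Sites were joined in Python 3.11.15 using pandas 2.3.3. Plots used matplotlib 3.10.9.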

Additional observations from a re-analysis of the deposited data

How the results depend on the processing

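The count of pore gene calls was 0 in each of the 14 alternatives for annotated sites, 13 for gene sums and 15 for sites with 10 reads or more. Several of these could give nothing else: those that call 0 features of the whole table (below), the added minimum difference of 10 points, and the distance of 1 kb, which keeps a subset of the same fit. Leaving out 1 library moved the gene differences to -0.34 to 2.12 points for Cacna1a, 0.31 to 0.81 for Cacna1b, -1.47 to 2.44 for Cacna1c, 0.27 to 0.86 for Cacna1e and -1.96 to 3.66 for Cacna1i. The cause of these shifts was not tested. Equal weight for sites gave -0.33 for Cacna1i, a setting that differs from the sums only in how sites are weighted. The whole-table counts that serve as background were less stable. Of the 464 annotated sites called, 87.3% were lower in SNL, but with library offsets 57.8% of 412 were. Of the 43 genes called, 95.3% were lower, but with offsets 75% of 40. Leaving out 1 library gave 129 (without Sham replicate 3) to 522 annotated sites, 3 (without SNL replicate 2) to 74 (without SNL replicate 1) genes, and 622 to 1525 sites with 10 reads or more (1693 with all). Limma called 0, 6 and 0, and the unmoderated F test 0 of each. Annotated calls were 240 at 200 reads or more, 226 with a difference of 10 points as well and 1484 by the authors' deposited q-value. Calls at 10 reads or more were 713 at 50 reads or more, 1 with library offsets and 0 with features without spread kept in the moderation. Same-numbered SNL and Sham libraries deviated with correlations of -0.0546, 0.256 and -0.135 over sites, and unlike-numbered ones with -0.293 to 0.341. The highest, 0.341, was between SNL 3 and Sham 1, so the numbers were not taken to pair the libraries. Whether libraries share an animal is not known. The replicate block pairs them by number only. Any pairing across numbers was not tested and, if there is one, the main test left it out. With the replicate block the calls were 163 annotated sites, 10 genes and 0 sites with 10 reads or more, and 0 pore genes. Depth limits the added sites, with a median lowest coverage of 14 reads.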
